A study of Mus musculus with 24 samples.

Results

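DKO cells, mouse embryonic stem cells (ESCs) edited in both Tet1 and Tet2, were set against Tet2-/- cells, edited in Tet2 alone, 6 days after leukemia inhibitory factor (LIF) was withdrawn (D6). The comparison asked whether the further loss of Tet1 changes what the loss of Tet2 does once ESCs are released into differentiation. It rests on 4 of the 24 RNA-seq libraries of the series, chosen by their labels alone: 2 clones of Tet2-/- and 2 of DKO, called replicates 1 and 2 of each. All clones came from 1 parental clone of a 129/SvJ line that carries eGFP behind the Pou5f1 (Oct4) gene, which is called WT in the study. The knockout clones were made by CRISPR/Cas9, and cells were grown on gelatin without feeder cells. The other D6 libraries, 3 of WT, 3 of Tet1-/- and 2 of TKO (Tet1, Tet2 and Tet3 edited), entered the same fit so that the spread between clones could be estimated from 12 libraries. The 12 libraries from before LIF withdrawal (D0) have the same groups.

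Each library is 1 clone, and by the study's methods the DKO clones were made from the parental line, as were the Tet2-/- clones. A property of single clones and the effect of the Tet1 edit therefore cannot be told apart, and p-values measure the spread between clones. The RNA was taken from whole cultures, so a lower level can mean fewer cells of a type or less RNA in each cell, and these cannot be told apart either.

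Tet enzymes oxidize 5-methylcytosine to 5-hydroxymethylcytosine and so oppose the DNA methyltransferases. Mouse ESCs transcribe mainly Tet1 and Tet2. LIF acts through its receptor and Stat3 to hold the naive pluripotent state, and without it ESCs pass through an epiblast-like state and give rise to a mixture of primitive streak, mesoderm, endoderm and other cells.

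Both genotypes carry the Tet2 edit, and DKO carries the Tet1 edit as well. The guide RNAs for these edits are shown first. Each is written 5′ to 3′ as the protospacer in lower case followed by the PAM in capitals.
Tet1 guide: ggctgctgtcagggagctcaTGG
Tet2 guide: gaaagtgccaacagatatccAGG
On mm9, the build of the deposited counts, the Tet1 site with its PAM lies at chr10:62296293-62296315 on the minus strand, which is the strand of the gene, in a coding exon that is exon 4 or 5 depending on the transcript. The Tet2 site lies at chr3:133148617-133148639, also on the minus strand and that of its gene, in a coding exon that is exon 1 or 3. Cas9 leaves small insertions or deletions at such sites, which need not remove the transcript, so the RNA level of an edited gene does not check its knockout.

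Of the 3 Tet genes, Tet2 was called and Tet1 and Tet3 were not. Tet1 had 335 and 300.3 CPM (read counts scaled to the size of the library) in the Tet2-/- replicates and 86.2 and 167 CPM in the DKO replicates, a log2 difference of -1.33 ± 0.56 (standard error, 2 clones each) that did not pass the test (adjusted p = 0.129, from the quasi-likelihood test of edgeR, adjusted over all genes by Benjamini and Hochberg). Tet2, edited in both genotypes, had 16.7 and 17.5 CPM in Tet2-/- and 6.10 and 10.6 CPM in DKO, which passed with a log2 difference of -1.03 ± 0.28 (edgeR adjusted p = 0.0311). Tet3 was at 16.1 and 16.8 CPM in Tet2-/- and 14.0 and 14.2 CPM in DKO and did not pass. Of the 9 Tet and DNA methylation genes, the other that passed was Dnmt3a, a de novo DNA methyltransferase, at 339.7 and 368 CPM in Tet2-/- and 147 and 142 CPM in DKO (log2 difference -1.29 ± 0.12, edgeR adjusted p = 0.00132). Uhrf1, which brings the maintenance methyltransferase to replicated DNA, had a log2 difference of -0.66 ± 0.12 and Dnmt1, that methyltransferase, one of -0.47 ± 0.11, both under the 2-fold minimum. WT values follow from the fit of all 24 libraries. Tet1 was at 125, 114 and 108 CPM in D6 WT, between the DKO values of that fit (80.9 and 157 CPM). Dnmt3a was at 179, 151 and 171 CPM in D6 WT, 323 and 350 CPM in Tet2-/- and 138 and 133 CPM in DKO. Tet2 was at 16.0, 12.9 and 12.3 CPM in D6 WT, above both DKO values (5.73 and 9.99 CPM). The 2 calls of this list became 1, 1, 1 and 3 without Tet2-/- replicate 1, Tet2-/- replicate 2, DKO replicate 1 and DKO replicate 2. Dnmt3a was called in all 20 alternative settings. The Tet2 call was lost in 5 of 20 (without Tet2-/- replicate 1, Tet2-/- replicate 2 or DKO replicate 1, with library totals, and with the replicate number as a block in 12 libraries), and Tet1 became called in 5 of 20 (the 4 libraries alone, with and without that block, and without 1 or both TKO libraries).

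The 4 libraries held 28139525 to 34219640 counts and the 12 D6 libraries 18400463 to 34219640. Of the Y-linked genes at D6, Ddx3y had 1.58 and 0.0732 CPM in Tet2-/- and 34.0 and 18.5 CPM in DKO, and Eif2s3y 7.06 and 0.952 CPM and 41.9 and 23.6 CPM, and Ddx3y was called higher in DKO while Eif2s3y was not called (edgeR adjusted p = 0.0496 and 0.0774). The calls of Ddx3y and Uty, the 2 of the Y chromosome and X inactivation list, were lost without any 1 of the 4 libraries. Over tested genes of 1 autosome, the median log2 difference ranged from -0.34 (chromosome 8) to 0.22 (chromosome 11), with -0.21 on chromosome 6, and these 3 medians were -0.21, 0.07 and -0.25 at D0. Each library was also set against the WT mean, as the chromosome 8 median log2 difference less that of all genes. At D6 it was 0.36 and 0.44 in Tet2-/-, -0.05 and 0.15 in DKO and -0.13 to 0.11 in WT. It was 0.08, -0.11 and 0.32 in Tet1-/- and 0.30 and 0.24 in TKO. At D0 it was 0.25 and 0.27 in Tet2-/- and 0.14 and -0.02 in DKO. The cause was not tested. The library labelled Tet1-/- D6 replicate 3 lay nearer to the Tet2-/- libraries (correlation distances 0.402 and 0.385 over the 1000 most variable genes) than to either DKO library (1.15 and 0.882). The 2 Tet2-/- libraries were 0.0215 apart and the 2 DKO libraries 0.309 apart, and neither pair agreed within sampling noise.

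DKO and Tet2-/- cells differed widely at D6, and most genes that were higher in DKO were also higher in WT cells after LIF withdrawal than before it. A gene was called when its adjusted p was under 0.05 and its change over 2-fold. Of 15435 tested genes, 983 (6.37%) were called higher in DKO and 483 (3.13%) lower, and all of them had both DKO libraries on one side of both Tet2-/- libraries, as did many genes that were not called: over all tested genes, both DKO libraries were above both Tet2-/- libraries in 37.9% and below them in 36.2%. The called changes had a median log2 difference of 1.90 upward and -1.61 downward, and 448 and 140 of them were over 4-fold. The counts depended on each of the 4 clones: they were 197 and 107 without Tet2-/- replicate 1, 11 and 17 without Tet2-/- replicate 2, 202 and 44 without DKO replicate 1, and 450 and 134 without DKO replicate 2, where the lone clone was taken to vary like the other groups. Without the Tet1-/- library that lay near Tet2-/- they were 1119 and 563, and without the genes of chromosomes 6, 8 and Y they were 935 and 391.

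**Figure D1:**
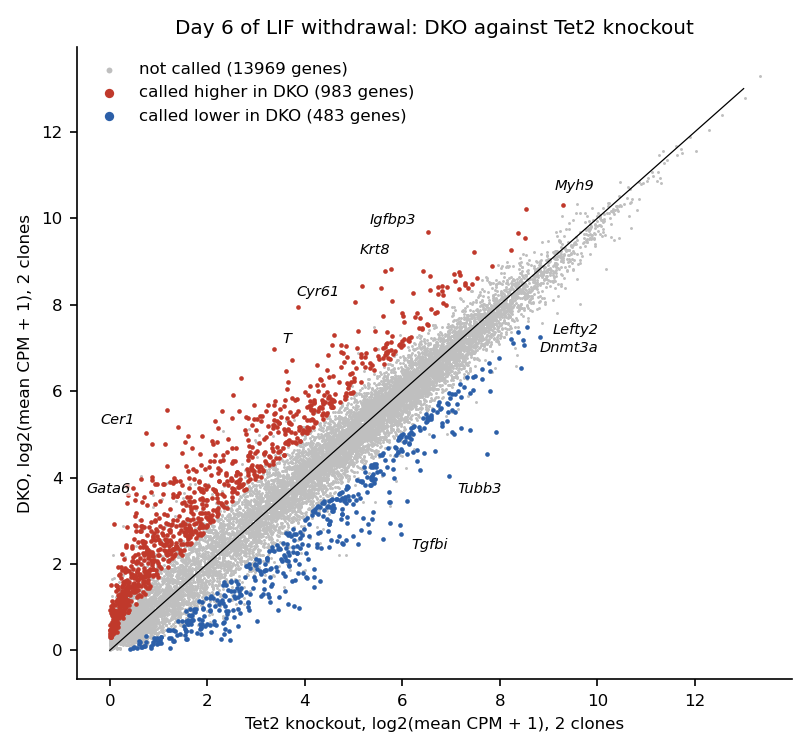
Mean level of each of the 15435 tested genes in Tet2-/- (horizontal) and DKO (vertical) at D6, as log2(mean CPM + 1) over 2 clones each. The line marks equal levels, red points the 983 genes called higher in DKO and blue points the 483 called lower, and 11 called genes discussed in the text are named.

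The genes with the largest differences that reached at least 5 CPM in the genotype where they were higher are named here. Upward they were Cer1, Sox17 and Lhx1 (endoderm and organizer genes), Bmp2 (a BMP ligand), Dkk1 (a secreted Wnt inhibitor), Capn6, Tns4, and Xlr3a, Ddx3y and Uty, which lie on the sex chromosomes. Capn6, a calpain-family protein, had 0.303 and 0.293 CPM in Tet2-/- and 11.1 and 10.9 CPM in DKO, a log2 difference of 5.19 ± 1.31 (edgeR adjusted p = 0.0257). Tns4, a focal adhesion protein, had 0.879 and 0.256 CPM and 15.8 and 13.2 CPM (4.63 ± 0.92, edgeR adjusted p = 0.0105). Xlr3a had 4 and 0 counts in Tet2-/- and 365 and 78 in DKO; near-identical copies of this gene share reads, so its value is uncertain.

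Downward, the genes with the largest differences included Mt3, Elavl3, Inhbb, Tgfbi, Zfyve28, Tcerg1l, Cspg5, Crtac1 and Pcsk1n. Several of them are best known from neurons: Elavl3, a neuronal RNA-binding protein, had 12.2 and 13.2 CPM in Tet2-/- and 1.07 and 1.01 CPM in DKO (-3.60 ± 0.57). Pcsk1n, an inhibitor of a prohormone convertase, had 43.7 and 51.1 CPM and 5.15 and 4.86 CPM (-3.24 ± 0.43). Inhbb, the subunit of activin B, was at 5.97 and 8.31 CPM in Tet2-/- and 0.492 and 0.700 CPM in DKO (-3.58 ± 0.55). The highest DKO value of each of these 3 genes was below its lowest Tet2-/- value by more than 4-fold. At D0, Elavl3 was at 9.47 and 7.92 CPM in Tet2-/- and 4.18 and 3.20 CPM in DKO. Pcsk1n was at 75.8 and 54.5 CPM in Tet2-/- and 13.5 and 16.1 CPM in DKO at D0.

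Among called genes, those with the highest CPM, which is not corrected for transcript length, included Myh9, Igfbp3, Car2 and Rbbp7 upward and Lefty2, Rrm2, Gsta4, Dnmt3a and Dlc1 downward. Igfbp3, which binds insulin-like growth factors, had 119 and 63.8 CPM in Tet2-/- and 956 and 684 CPM in DKO (3.16 ± 0.52, edgeR adjusted p = 0.00567). Myh9, the heavy chain of non-muscle myosin, had 604 and 645 CPM and 1368 and 1178 CPM, a difference of just over 2-fold. Dlc1, a GTPase-activating protein, was lower, at 327 and 365 CPM in Tet2-/- and 78.9 and 105 CPM in DKO (-1.91 ± 0.16, edgeR adjusted p = 0.00132).

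Primitive streak and early mesoderm genes were the group of known lineage factors with the most genes higher in DKO. Of 18 tested genes of this list, 9 (50%) were called higher and 0 lower, and the median log2 difference was 3.55, against 0.01 over all tested genes. T (Brachyury), the transcription factor that marks the streak, had 13.4 and 5.42 CPM in the Tet2-/- replicates and 101 and 148 CPM in the DKO replicates, a log2 difference of 3.72 ± 0.68 (edgeR adjusted p = 0.00793). Mixl1, a homeobox factor of the streak, had 6.82 and 4.06 CPM and 52.0 and 104 CPM (3.84 ± 0.89, edgeR adjusted p = 0.0191). Evx1, of the posterior streak, had 1.15 and 0.513 CPM and 11.7 and 17.2 CPM (4.08 ± 1.06), and Gsc, of the anterior streak and organizer, 2.94 and 1.68 CPM and 14.4 and 14.9 CPM (2.65 ± 0.45). Markers of both ends of the streak were thus called higher in DKO.

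Of the signals and receptors in that list, Wnt3, the ligand that streak formation needs in the embryo, had 13.6 and 9.59 CPM in Tet2-/- and 71.9 and 75.2 CPM in DKO (2.66 ± 0.57). Fgf8 had 24.3 and 20.02 CPM and 58.3 and 52.9 CPM (1.33 ± 0.35), and Pdgfra, a receptor of paraxial and other mesoderm, 0.818 and 0.366 CPM and 7.93 and 11.8 CPM (4.01 ± 1.18). Eomes, an early streak factor, was already at 84.1 and 58.4 CPM in Tet2-/- and stood at 96.3 and 131 CPM in DKO, a log2 difference of 0.67 ± 0.46 that did not pass (edgeR adjusted p = 0.335). Mesp1, a factor of nascent cardiac mesoderm, had 0.364 and 0.110 CPM and 1.71 and 5.21 CPM and did not pass (edgeR adjusted p = 0.108). The summed level of the list was 155 and 106 CPM in Tet2-/-, 475 and 678 CPM in DKO and 544 to 1585 CPM in WT. The 9 calls became 2, 0, 3 and 3 without Tet2-/- replicate 1, Tet2-/- replicate 2, DKO replicate 1 and DKO replicate 2.

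In the other D6 genotypes the same genes stood as follows. T was at 82.8, 147 and 173 CPM in the 3 WT libraries, 71.3, 165 and 198 CPM in Tet1-/- and 65.2 and 213 CPM in TKO, so that the Tet2-/- values were the lowest of the 12. For Lhx1, a homeobox factor of mesoderm and node, the values were 1.94 and 0.549 CPM in Tet2-/-, 30.8 and 61.1 CPM in DKO, 8.91 and 12.9 CPM in TKO and 58.2, 131 and 192 CPM in WT, and the higher DKO value was just above the lowest WT value. Pdgfra was at 22.9, 78.0 and 86.2 CPM in WT, above both DKO values.

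**Figure D2:**
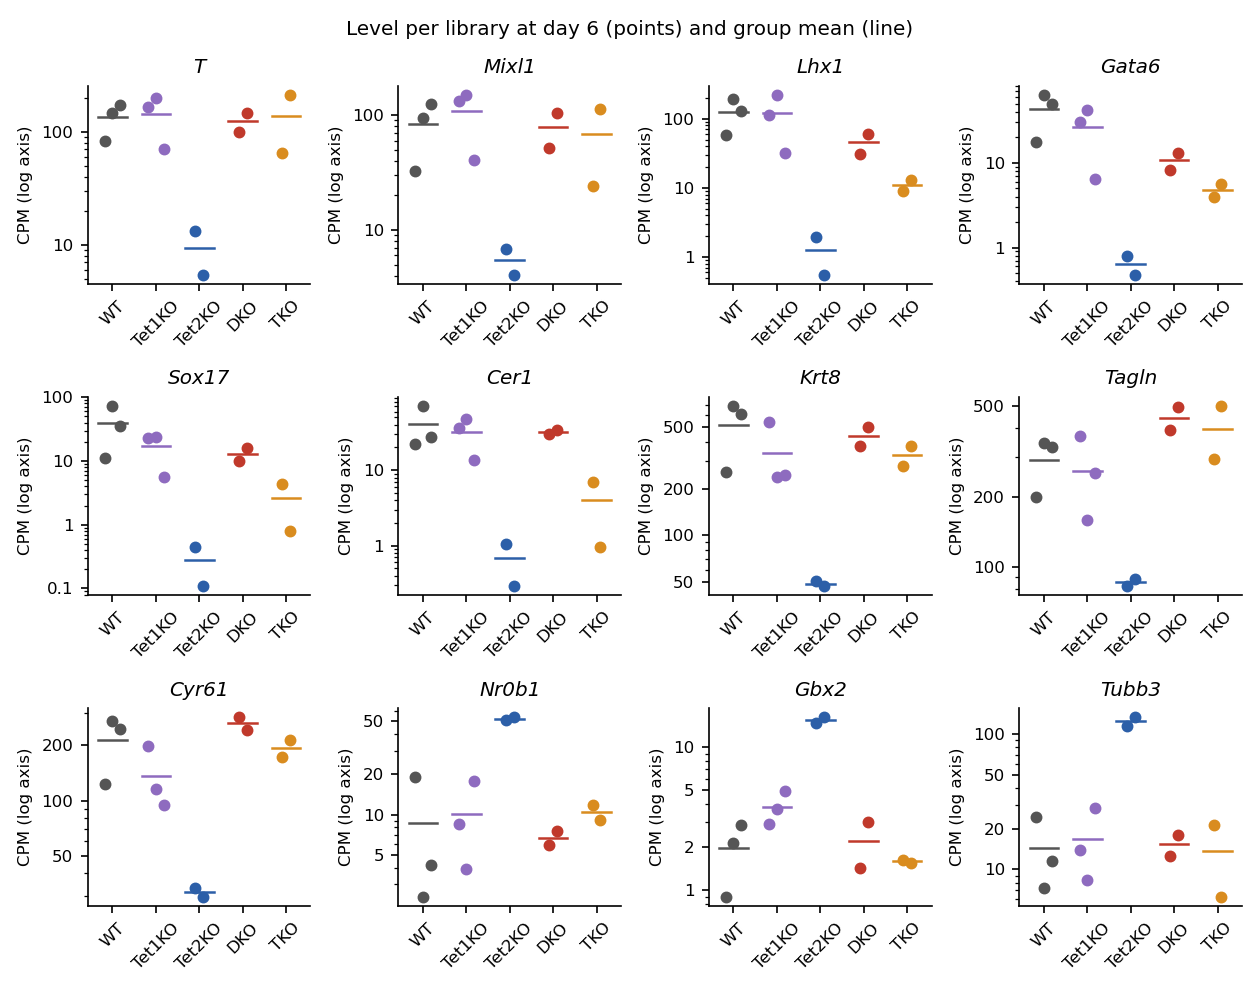
CPM of 12 genes in each D6 library, on a logarithmic axis, with a point per clone and a line at the group mean. In all 12 panels the 2 Tet2-/- points lie apart from the 2 DKO points: below them for T, Mixl1, Lhx1, Gata6, Sox17, Cer1, Krt8, Tagln and Cyr61, and above them for Nr0b1, Gbx2 and Tubb3.

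A list of endoderm genes, most of them transcription factors, had 3 of 12 tested genes higher in DKO (25.0%) and 0 lower, with a median log2 difference of 1.87. The 3 were the factors Gata6, which is also counted among the called genes of the streak list, and Sox17, and the secreted protein Cer1, which is also on the Nodal list. Gata6, a factor of primitive and definitive endoderm, had 0.788 and 0.476 CPM in Tet2-/- and 8.30 and 13.2 CPM in DKO (4.06 ± 0.90, edgeR adjusted p = 0.0160). Sox17 had 0.454 and 0.110 CPM and 10.2 and 16.0 CPM (5.45 ± 1.21, edgeR adjusted p = 0.0159). Cer1, a secreted inhibitor of Nodal, BMP and Wnt made by anterior endoderm, had 1.06 and 0.293 CPM and 29.8 and 33.9 CPM (5.50 ± 1.01, edgeR adjusted p = 0.00784). Foxa2, which endoderm and node share, had 4.82 and 3.08 CPM and 11.02 and 12.8 CPM and did not pass (edgeR adjusted p = 0.153). The DKO values of Gata6 were below each of the WT values (17.6, 49.4 and 63.2 CPM), whereas those of Cer1 lay within the WT range (22.4, 27.9 and 71.0 CPM). The 3 calls became 0, 0, 1 and 1 without each of the 4 libraries in turn, in the order given above.

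Of the effector genes of visceral endoderm, 3 of 9 tested (Rbp4, Dab2 and Cited1) were called higher. The defining serum proteins of that tissue were not among them: Afp had 1 and 0 counts in Tet2-/- and 2 and 1 in DKO, and Ttr 0 and 0 in Tet2-/- and 1 and 1 in DKO, too few to be tested. The 3 calls became 0, 0, 1 and 2 without each of the 4 libraries. Of the trophectoderm list, 3 of 13 were called higher, namely Gata3, Krt7 and Tead4, and 0 lower (1, 0, 1 and 2 without each library). Gata3, a factor of trophectoderm and of some mesoderm, had 0.939 and 0.879 CPM in Tet2-/- and 9.46 and 9.34 CPM in DKO (3.36 ± 0.66). Cdx2, a factor of trophectoderm and of posterior streak, had 0.454 and 0.732 CPM and 3.38 and 8.54 CPM, a log2 difference of 3.33 ± 1.19 that did not pass (edgeR adjusted p = 0.0813). Cdx2 became called in 6 of 20 alternative settings, and DESeq2 called 8 of the trophectoderm list higher. The placental genes Prl3d1 and Tpbpa had 0 to 1 counts in the 4 libraries.

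Later mesoderm derivatives were described by 3 lists. Of 17 tested cardiac genes, 1 was higher (Tnnc1, troponin C, 0.576 and 0.696 CPM in Tet2-/- and 4.31 and 4.97 CPM in DKO) and 1 lower (Ryr2, a calcium release channel, 4.15 and 4.54 CPM and 1.97 and 1.33 CPM). The share higher, 5.88%, was near the 6.37% of all tested genes, whereas the median log2 difference was 1.88, with 13 of 17 positive, and DESeq2 called 7 higher. Hand1, a factor of lateral mesoderm, was at 0.757 and 0.915 CPM in Tet2-/-, 9.17 and 12.9 CPM in DKO and 41.0, 132 and 232 CPM in WT, and its DKO to Tet2-/- difference did not pass (edgeR adjusted p = 0.0578). Of 14 tested endothelial and blood genes, Flt1, a VEGF receptor, was the single gene called higher (median of the list 0.30), at 10.8 and 6.19 CPM and 33.5 and 37.4 CPM, and the embryonic globin genes Hbb-bh1, Hba-x and Hbb-y had 0 to 1 counts. These single calls were lost without any 1 of the 4 libraries.

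Smooth muscle and contractile genes had 8 of 18 tested members higher in DKO (44.4%) and 0 lower, with a median log2 difference of 1.10. Tagln, an actin-binding protein of smooth muscle and stress fibres, had 82.5 and 88.1 CPM in Tet2-/- and 390.1 and 491 CPM in DKO (2.37 ± 0.39, edgeR adjusted p = 0.00553). Acta2, smooth muscle actin, had 10.2 and 12.04 CPM and 44.0 and 64.6 CPM (2.29 ± 0.65). Tpm1, Cald1, Csrp1 and Cnn2, regulators of actin filaments that many adherent cells also express, were higher by 1.64, 1.49, 1.62 and 1.14 on the log2 scale, and the other called genes were Cnn1 and Lmod1. The DKO values of Tagln were above all 3 WT values (201, 329 and 343 CPM). The count became 0, 0, 2 and 5 without Tet2-/- replicate 1, Tet2-/- replicate 2, DKO replicate 1 and DKO replicate 2.

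Targets of the Hippo effector YAP and of TGF-beta were the list with the highest share of members higher in DKO: 8 of 11 (72.7%), with 1 lower and a median log2 difference of 2.02. YAP, bound to TEAD factors, drives such genes when the Hippo kinases are inactive. Cyr61, a matricellular protein, had 33.4 and 29.8 CPM in Tet2-/- and 286 and 243 CPM in DKO (3.06 ± 0.40, edgeR adjusted p = 0.00279). Thbs1 (thrombospondin) had 56.2 and 53.1 CPM and 279 and 264 CPM (2.31 ± 0.44), and Ankrd1 0.364 and 0.146 CPM and 5.21 and 3.25 CPM (3.997 ± 0.87). Lats2, a kinase of the pathway and itself a YAP target, had 9.82 and 8.90 CPM and 55.9 and 43.9 CPM (2.42 ± 0.25, edgeR adjusted p = 0.00132). Amotl2, Axl and Ctgf were also called, by 1.61, 1.46 and 1.09 on the log2 scale. Tgfbi, a matrix protein named for its induction by TGF-beta, went the other way, from 55.4 and 68.3 CPM in Tet2-/- to 5.41 and 5.46 CPM in DKO (-3.51 ± 0.34, edgeR adjusted p = 0.00132). The 8 calls became 3, 1, 3 and 6 without each of the 4 libraries, and Tgfbi kept its call in all of these.

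The promoters of Cyr61 and Ankrd1 are printed as members of this list, to show where the core TEAD motif occurs. Each is the 250 bases before the gene's start in RefSeq (GRCm38.p6), written 5′ to 3′ on the strand of the gene and placed on mm9 by an exact match, with each GGAATG or its complement CATTCC in capitals.
Cyr61, chr3:145312950-145313199, minus strand: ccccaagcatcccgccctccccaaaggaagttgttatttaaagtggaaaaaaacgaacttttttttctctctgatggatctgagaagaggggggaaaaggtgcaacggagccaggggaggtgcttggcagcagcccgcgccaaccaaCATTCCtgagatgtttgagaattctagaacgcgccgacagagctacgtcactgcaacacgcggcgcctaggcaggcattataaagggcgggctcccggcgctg
Ankrd1, chr19:36194335-36194584, minus strand: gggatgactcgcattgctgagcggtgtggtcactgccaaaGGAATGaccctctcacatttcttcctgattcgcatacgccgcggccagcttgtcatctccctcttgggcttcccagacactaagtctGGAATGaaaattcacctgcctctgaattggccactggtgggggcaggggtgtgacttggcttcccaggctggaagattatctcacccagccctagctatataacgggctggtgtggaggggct
Cyr61 holds 1 such match and Ankrd1 2, and 12.6% of all 27025 promoters of that length in the table hold at least 1. The match describes the letters in this window only, and these promoters were chosen after the values were seen.

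Keratins and junction proteins of epithelia had 8 of 16 tested genes higher in DKO (50%) and 0 lower, with a median log2 difference of 1.04. Krt8 and Krt18, the partners of the simple epithelial keratin filament, had 50.4 and 47.1 and 54.7 and 51.7 CPM in Tet2-/- and 376 and 504 and 417 and 481 CPM in DKO. Their log2 differences were 3.17 ± 0.50 and 3.08 ± 0.42 (edgeR adjusted p = 0.00472 and 0.00311). Krt19 had 12.1 and 10.2 CPM and 79.6 and 95.5 CPM (2.97 ± 0.59). The claudins Cldn3, Cldn4 and Cldn7 and the tight junction genes Ocln and Crb3 were higher by 1.19, 1.71, 1.51, 1.16 and 1.64 on the log2 scale. Cdh1 (E-cadherin), which ESCs express throughout, was at 731 and 715 CPM in Tet2-/- and 907 and 1079.5 CPM in DKO and did not pass (edgeR adjusted p = 0.196). The count became 3, 1, 3 and 6 without each of the 4 libraries.

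The mesenchymal list had 1 of 16 genes higher (S100a6, a calcium-binding protein) and 1 lower, with a median log2 difference of 0.64, and the higher calls became 0, 0, 1 and 0 without each of the 4 libraries. The lower one was Zeb1, a repressor of epithelial genes, at 15.8 and 14.7 CPM in Tet2-/- and 3.36 and 4.16 CPM in DKO (-2.02 ± 0.61, edgeR adjusted p = 0.0484), and this call was lost without any 1 of the 4 libraries. Of 24 extracellular matrix genes, 7 were higher and 0 lower, with a median log2 difference of 0.65 (1, 0, 1 and 1 without each library). Sparc, a collagen-binding protein of basement membranes, had 179.8 and 170.4 CPM in Tet2-/- and 594 and 596 CPM in DKO (1.76 ± 0.21), and Col5a1 25.9 and 29.5 CPM and 119 and 143 CPM (2.24 ± 0.45). The others were Bgn, Col6a1, Col6a2, Col1a2 and Lum, the last with 1 and 1 counts in Tet2-/- and 26 and 34 in DKO.

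**Figure D3:**
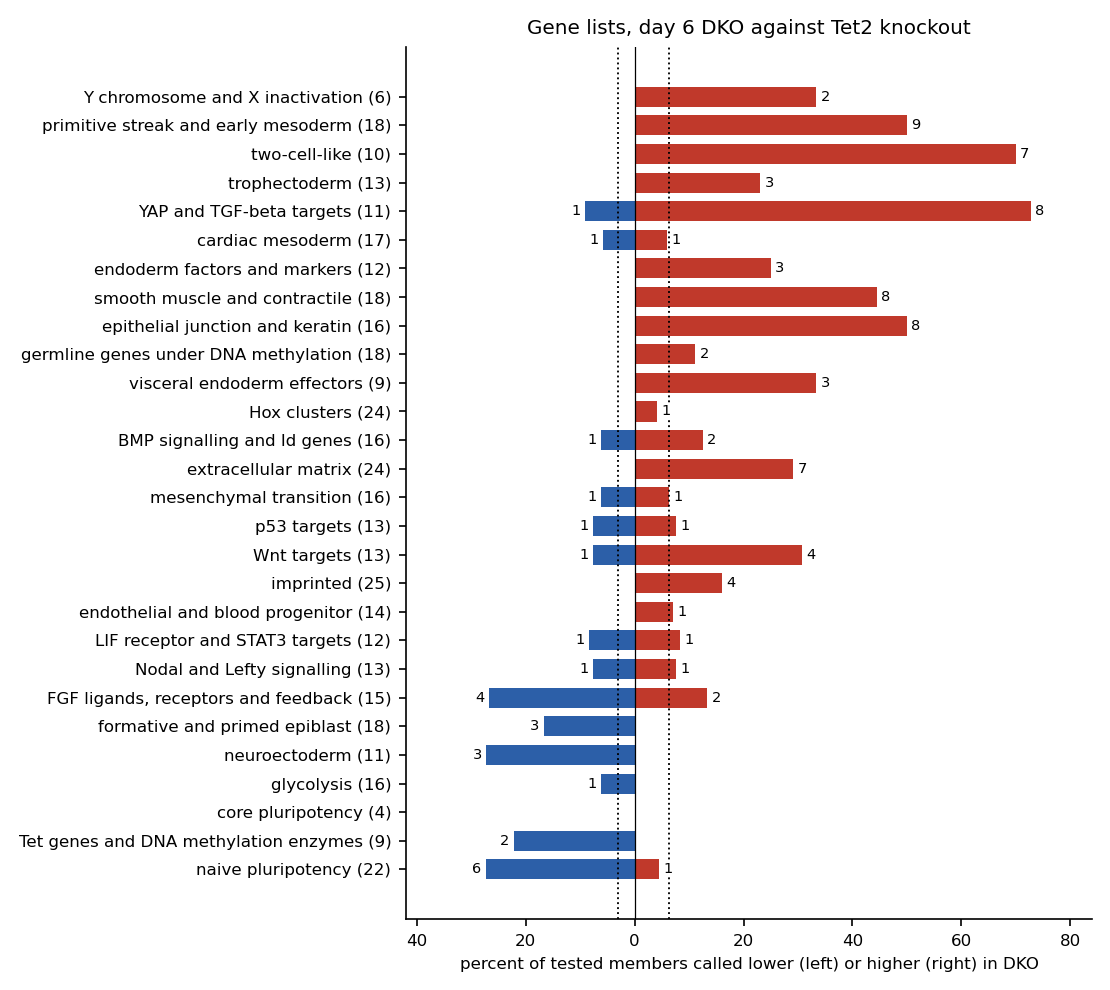
Percent of the tested members of 28 gene lists that were called higher (red, right) or lower (blue, left) in DKO than in Tet2-/- at D6, ordered by the median log2 difference, with the number called beside each bar and the number tested in brackets. The dotted lines mark 6.37% and 3.13%, the shares over all tested genes.

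Among signalling pathways, Wnt targets had 4 of 13 tested genes higher and 1 lower (median log2 difference 0.35). Sp5, a direct target of beta-catenin, had 6.24 and 3.22 CPM in Tet2-/- and 46.3 and 71.7 CPM in DKO (3.63 ± 0.68, edgeR adjusted p = 0.00841). Axin2, a feedback inhibitor often used as a readout of the pathway, had 22.6 and 17.4 CPM and 54.5 and 64.2 CPM (1.57 ± 0.40). Dkk1 had 0.636 and 0.256 CPM and 9.34 and 13.4 CPM (4.62 ± 1.06), and Rnf43, which removes Wnt receptors, 1.67 and 1.98 CPM and 4.95 and 4.09 CPM (1.31 ± 0.33). Axin2, Dkk1 and Rnf43 all encode inhibitors of the pathway. Ccnd1 (cyclin D1) was lower, at 213 and 223 CPM and 89.9 and 110.4 CPM (-1.12 ± 0.16). The 4 higher calls became 0, 0, 1 and 1 without each of the 4 libraries, and Ccnd1 was still called without Tet2-/- replicate 1 and without DKO replicate 2.

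The promoters of Sp5 and T, both of which respond to Wnt, are printed with the TCF core motif CTTTGA or its complement TCAAAG in capitals, under the same conventions.
Sp5, chr2:70312730-70312979, plus strand: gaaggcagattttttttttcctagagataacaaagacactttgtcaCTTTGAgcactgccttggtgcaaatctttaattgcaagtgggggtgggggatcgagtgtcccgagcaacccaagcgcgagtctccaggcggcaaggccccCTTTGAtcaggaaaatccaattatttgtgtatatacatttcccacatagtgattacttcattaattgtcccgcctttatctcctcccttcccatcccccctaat
T, chr17:8627038-8627287, plus strand: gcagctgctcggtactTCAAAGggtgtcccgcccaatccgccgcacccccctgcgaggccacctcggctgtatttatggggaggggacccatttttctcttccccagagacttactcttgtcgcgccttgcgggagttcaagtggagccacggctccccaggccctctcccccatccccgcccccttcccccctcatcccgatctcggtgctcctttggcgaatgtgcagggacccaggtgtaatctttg
Sp5 holds 2 matches and T 1, and 14.05% of all 27025 promoters in the table hold at least 1. Of the 7 tested Wnt targets with a promoter there, 2 hold a match, and of 13 genes of the streak list, 3. Sp5 and T were also chosen after the values were seen.

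The Nodal and Lefty list had 1 of 13 genes higher (Cer1) and 1 lower. The lower one was Lefty2, a Nodal inhibitor and Nodal target, at 402 and 504 CPM in Tet2-/- and 128 and 177 CPM in DKO (-1.57 ± 0.38, edgeR adjusted p = 0.0210), against 69.3, 94.0 and 98.8 CPM in WT. Lefty1 had 102 and 135 CPM and 36.8 and 47.1 CPM and did not pass (edgeR adjusted p = 0.115), nor did Nodal (105 and 117 CPM and 161 and 149 CPM). In the BMP list, 2 of 16 genes were higher, the ligand Bmp2 (0.364 and 0.183 CPM and 8.33 and 10.8 CPM) and the BMP antagonist Nog (1.12 and 0.293 CPM and 5.1205 and 5.67 CPM), and Id4 was lower (7.12 and 9.01 CPM and 2.89 and 2.34 CPM). DESeq2 called 5 of the BMP list higher and 1 lower. The Lefty2 call and the 3 BMP calls were lost without any 1 of the 4 libraries.

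FGF signalling genes went both ways, with 2 of 15 higher (Fgf8 and Fgfr3) and 4 lower. Fgf15 had 60.6 and 61.3 CPM in Tet2-/- and 4.77 and 8.22 CPM in DKO (-3.23 ± 0.70, edgeR adjusted p = 0.0144). The feedback inhibitor Spry4 had 162 and 171 CPM and 21.6 and 44.4 CPM (-2.34 ± 0.51), and Spry2 and the target Etv4 were lower by -1.07 and -1.07 on the log2 scale. Fgf4, the ESC ligand of the pathway, had 141 and 141 CPM and 48.3 and 45.1 CPM and did not pass (edgeR adjusted p = 0.150). The 4 lower calls became 0, 0, 0 and 1, and the 2 higher calls 0, without each of the 4 libraries. In the list of LIF receptor and STAT3 targets, Lifr, the receptor itself, was lower (23.1 and 22.04 CPM and 7.55 and 9.06 CPM, -1.44 ± 0.24) and Socs3, which shuts the receptor off, higher (6.91 and 6.77 CPM and 24.4 and 21.2 CPM, 1.74 ± 0.36), with 10 of 12 genes not called. Without each library in turn, Lifr kept its call without the replicates 1 of Tet2-/- and 2 of DKO and Socs3 without DKO replicate 2.

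Core pluripotency factors did not pass, while part of the naive group did. Pou5f1 had 514 and 604 CPM in Tet2-/- and 304 and 362 CPM in DKO (log2 difference -0.75 ± 0.31, edgeR adjusted p = 0.118), and Nanog 422 and 411 CPM and 442 and 334 CPM (-0.10 ± 0.32, edgeR adjusted p = 0.852). Sox2 had 551 and 604 CPM and 218 and 226 CPM (-1.38 ± 0.52, edgeR adjusted p = 0.0951) and Sall4 a log2 difference of -0.36 ± 0.14 (edgeR adjusted p = 0.113). All 4 are still transcribed in both genotypes. Both Tet2-/- values of Pou5f1 and Sox2 were above both DKO values, and the Nanog values overlapped.

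Of 22 naive pluripotency genes, 6 were lower in DKO (27.3%) and 1 higher, with a median log2 difference of -0.997. Nr0b1 (Dax1) had 51.0 and 53.8 CPM in Tet2-/- and 5.93 and 7.49 CPM in DKO (-2.97 ± 0.86, edgeR adjusted p = 0.0410). Nr5a2, a nuclear receptor that can sustain Pou5f1 transcription, had 99.0 and 101 CPM and 19.7 and 27.3 CPM (-2.09 ± 0.60). Tcl1, a co-activator of Akt, had 63.2 and 71.2 CPM and 9.55 and 10.4 CPM (-2.75 ± 0.55), and Gbx2, a homeobox target of LIF and Stat3, 14.7 and 16.3 CPM and 1.42 and 2.97 CPM (-2.82 ± 0.49). Prdm14 and Tet2 completed the lower genes. Klf2 and Esrrb, central factors of the naive network, had log2 differences of -1.77 ± 0.56 and -1.77 ± 0.61 and did not pass (edgeR adjusted p = 0.0545 and 0.0721). Dppa3 (Stella) was the gene called higher, at 0.394 and 0.513 CPM and 7.32 and 4.27 CPM (3.68 ± 0.95). DESeq2 called 8 genes of the list lower and 1 higher, and the fit of 12 libraries with the replicate number as a block 3 and 0. The 6 lower calls became 1, 0, 0 and 2 without each of the 4 libraries, and the Dppa3 call was lost without any 1 of them.

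The formative and primed epiblast list had 3 of 18 genes lower (Dnmt3a, Etv4 and Fgf15) and 0 higher, and Fgf5, its standard marker, was at 142 and 123 CPM in Tet2-/- and 223 and 178 CPM in DKO and did not pass (edgeR adjusted p = 0.419). In the neuroectoderm list 3 of 11 tested genes were lower (27.3%) and 0 higher. Tubb3, neuronal beta-tubulin, had 114 and 133 CPM in Tet2-/- and 12.6 and 17.9 CPM in DKO (-3.02 ± 0.69, edgeR adjusted p = 0.0180). Sox1, the early neural plate factor, had 7.66 and 9.52 CPM and 0.434 and 2.31 CPM (-2.66 ± 0.72), and Hes5, a Notch target, 0.818 and 0.513 CPM and 0.0868 and 0.210 CPM. Nes (nestin) had 79.5 and 69.7 CPM and 109.6 and 136 CPM and did not pass, and the proneural genes Neurog1 and Neurog2 had 0 to 1 counts in the 4 libraries. The 3 lower neural calls became 0, 0, 0 and 1 without each of the 4 libraries, and the 3 epiblast calls 1, 1, 1 and 1.

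Further lists held single or few calls. Of 16 glycolysis genes, 1 was lower (Pfkp, a phosphofructokinase, 111 and 111 CPM in Tet2-/- and 44.5 and 30.2 CPM in DKO, -1.57 ± 0.29), and the median log2 difference was -0.51. Of 13 p53 targets, Perp, a desmosome-associated protein, was higher (1.94) and Gdf15, a stress-induced secreted factor, lower (-2.09). Of 24 tested Hox genes, 1 was called higher, Hoxc4, which stayed under 1 CPM in all 4 libraries. Without each of the 4 libraries the Pfkp call was left once, without DKO replicate 1, the Perp call without either DKO replicate, and the Gdf15 and Hoxc4 calls never.

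Imprinted genes had 4 of 25 tested members higher (16.0%) and 0 lower, with a median log2 difference of 0.32. Igf2, a paternally expressed growth factor, had 21.6 and 25.1 CPM in Tet2-/- and 133 and 179 CPM in DKO (2.74 ± 0.68), and its WT values were 265, 688 and 828 CPM. Peg3 had 105 and 82.7 CPM and 413 and 391.99 CPM (2.099 ± 0.51), and Plagl1, a zinc-finger factor that regulates other imprinted genes, 8.997 and 8.13 CPM and 19.4 and 23.5 CPM (1.32 ± 0.36). Zim1, a neighbour of Peg3, completed the group. H19, the maternally expressed neighbour of Igf2, had 8.79 and 9.66 CPM and 42.8 and 17.5 CPM and did not pass (edgeR adjusted p = 0.0743). The 4 calls were lost without any 1 of the 4 libraries.

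The largest share after the YAP list was that of genes of 2-cell-like cells, a rare state of ESC cultures, with 7 of 10 tested genes higher. Their levels were low: Zscan4d had 0.0909 and 0.293 CPM in Tet2-/- and 1.45 and 2.17 CPM in DKO, and Zscan4c 0.0909 and 0.146 CPM and 0.984 and 1.29 CPM. The other called genes were Tcstv1, Tcstv3, Usp17la, Usp17lc and Usp17le. The list summed to 1.18 and 1.54 CPM in Tet2-/-, 9.34 and 21.4 CPM in DKO and 0.934 to 1.56 CPM in WT. Its median log2 difference from WT was 0.51 in Tet2-/- and 3.76 in DKO, and WT itself fell from D0 to D6 (median -3.30). In this list DKO, and not Tet2-/-, thus lay apart from WT. All 10 genes were called higher in DKO at D0 already. Copies in these families are nearly identical and can share reads, so single values are uncertain and the 10 genes are not 10 separate observations. DESeq2 called 8 of them higher at D6, and the fit of 12 libraries with the replicate number as a block 3. The 7 calls became 0 without any 1 of the 4 libraries.

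Of 18 tested germline genes whose promoters are known to be DNA-methylated in somatic cells, 2 were higher, Sycp2 (of the synaptonemal complex) and Mael, and 0 lower (0, 0, 0 and 1 without each of the 4 libraries). At D0, 8 of the 18 were called higher in DKO and 0 lower, with a median log2 difference of 1.57 at D0 and 1.03 at D6. Mael, a factor of the piRNA pathway that silences transposons, had 3.39 and 3.112 CPM in Tet2-/- and 29.8 and 25.9 CPM in DKO (3.095 ± 0.60, edgeR adjusted p = 0.00932), and it differed at D0 as well, with 2.82 and 3.04 CPM in Tet2-/- and 16.8 and 18.4 CPM in DKO. In WT it went from 11.6, 15.9 and 21.9 CPM at D0 to 2.96, 3.35 and 11.4 CPM at D6. Its promoter is printed because the genotypes differ in enzymes that act on methylated CpG, with each CG in capitals and otherwise under the same conventions.
Mael, chr1:168168876-168169125, minus strand: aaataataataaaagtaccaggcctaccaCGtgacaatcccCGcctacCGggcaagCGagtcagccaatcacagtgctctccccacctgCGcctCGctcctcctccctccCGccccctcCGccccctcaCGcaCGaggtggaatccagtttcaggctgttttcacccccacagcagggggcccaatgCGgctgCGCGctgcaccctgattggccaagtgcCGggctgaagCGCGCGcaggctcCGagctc
This window holds 18 CG, and the median is 6 over all 27025 promoters in the table, 15 over the 11392 of tested genes and 17 over the 17 of the germline list. DNA methylation was not analysed here.

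The difference at D6 was partly present before LIF was withdrawn. At D0, 351 genes (2.24% of 15639) were called higher in DKO than in Tet2-/- and 399 (2.55%) lower. Among genes higher at D6, 125 of the 977 in the fit of both days (12.8%) were called higher at D0 as well, and among those lower at D6, 86 of 483 (17.8%) were called lower at D0. By their labels the clones of both genotypes are the same at both days (the name of 1 D6 DKO clone, written without its point, was read as that of a D0 clone), so these are not independent observations of the genotypes. The replicate numbers 1 and 2 of DKO stand for the opposite clones at D0 and D6. Tagln, Mael, Tgfbi and Lefty2 were examples, with log2 differences at D0 of 1.42 ± 0.43, 2.58 ± 0.55, -2.24 ± 0.40 and -2.37 ± 0.45.

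**Figure D4:**
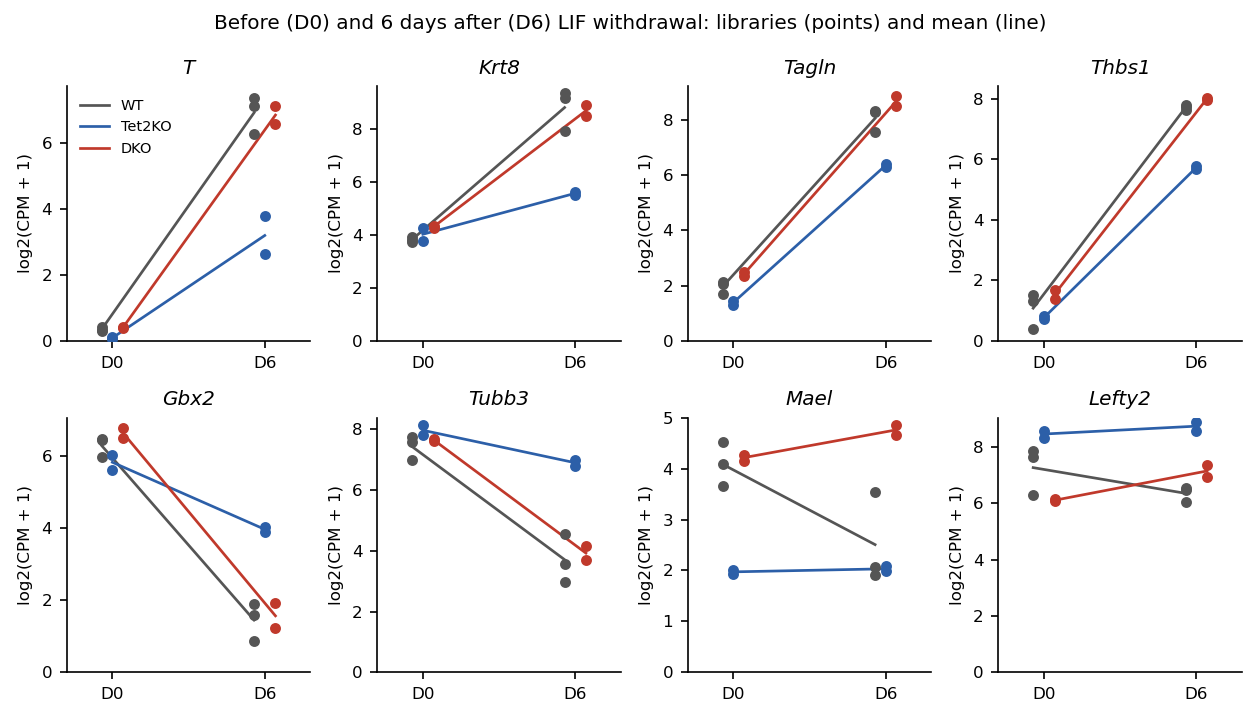
Levels of 8 genes before (D0) and 6 days after (D6) LIF withdrawal, as log2(CPM + 1) from the fit of both days, with points for clones and lines between group means of WT (grey), Tet2-/- (blue) and DKO (red). For T, Krt8, Gbx2 and Tubb3 the Tet2-/- line departs from the others by D6, while Mael and Lefty2 differ between Tet2-/- and DKO on both days.

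A test of the change in the difference between days, an interaction contrast over all 24 libraries, called 490 genes (3.13%) whose DKO to Tet2-/- difference rose from D0 to D6 and 242 (1.55%) whose difference fell. Krt8 had 12.7 and 18.3 CPM in Tet2-/- and 18.1 and 19.3 CPM in DKO at D0, overlapping values, and separated by D6, with an interaction of 2.89 ± 0.55 on the log2 scale (edgeR adjusted p = 0.00711). Gbx2 had 48.4 and 65.3 CPM in Tet2-/- and 109 and 91.0 CPM in DKO at D0 and turned round by D6, with an interaction of -3.67 ± 0.47 (edgeR adjusted p = 0.00112). The streak genes did not pass this test: T, for example, had 0.0427 and 0.0876 CPM and 0.311 and 0.345 CPM at D0, each from few reads, and an interaction of 1.53 ± 2.33 (edgeR adjusted p = 0.720). The 2 counts ranged from 115 to 319 and from 29 to 136 when any 1 of the 8 DKO and Tet2-/- libraries was left out.

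The 6 WT libraries, which do not enter the DKO to Tet2-/- contrast, show what the same genes do in cells with all Tet genes. Of the 977 genes higher in DKO, 706 (72.3%) were called higher in WT at D6 than at D0 and 33 (3.38%) lower, while 20.7% and 13.3% of all 15639 genes were. Of the 483 genes lower in DKO, 247 (51.1%) were called lower in WT at D6 and 41 (8.49%) higher. In Tet1-/- cells, 656 (67.1%) of the former were higher at D6 than D0, against 19.9% of all genes, and 217 (44.9%) of the latter lower, against 11.2%. When scaled by library totals, the WT shares were 75.2% and 45.5%.

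**Figure D5:**
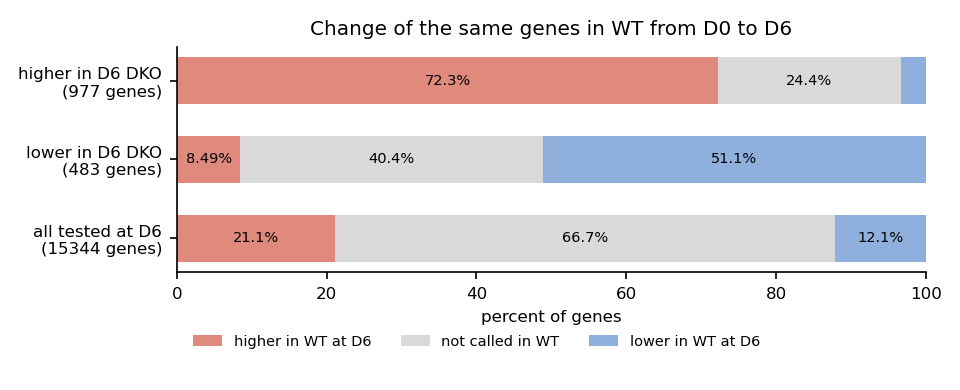
Share of genes called higher (red), not called (grey) or called lower (blue) in WT at D6 against D0, for the 977 genes higher in D6 DKO than Tet2-/-, the 483 lower, and the 15344 genes tested at D6 that are in the fit of both days. The red share is 72.3% in the first bar and 21.1% in the last, and the blue share 51.1% in the second bar and 12.1% in the last.

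Each genotype was also compared with WT and Tet1-/- in the D6 fit. These comparisons share libraries with the one above, so their own values are given side by side and no overlap is drawn from them. Tet2-/- had 742 genes (4.81%) called higher and 1459 (9.45%) lower than WT. DKO had 0 called in either direction against WT with edgeR, where 396 and 400 passed an unadjusted p under 0.05 with the 2-fold minimum, and DESeq2 called 99 and 86. Against Tet1-/-, DKO again had 0 called genes in edgeR (133 and 155 at the unadjusted p, smallest adjusted p = 0.705), and DESeq2 called 1 and 2. TKO, which shares the Tet2-/- libraries in its own contrast, had 928 genes (6.01%) higher and 406 (2.63%) lower than Tet2-/-. The DKO counts do not show that DKO equals WT or Tet1-/-: Gata6 and Pdgfra, for example, were lower in both DKO libraries than in all WT libraries.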

How the data were processed

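Per the labels and the study's methods, polyadenylated RNA was sequenced as paired-end reads, and the submitters' processing notes name STAR 2.5.1, DESeq2 and build mm9. The authors deposited raw read counts per RefSeq transcript row, without normalization or pooling: 31928 rows for 22926 gene symbols. The use of strand in counting is not given in the sources used here, so overlapping and antisense genes are uncertain. The study added ERCC spike-in RNA and scaled to it. The tables used here have 0 spike-in rows, so the TMM scaling below differs from the study's, and a change in total RNA per sample would not be seen.

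From these counts, the first row per symbol (4911 symbols have more than 1) was tested in R 4.3.3 with edgeR 4.0.16 (TMM, filterByExpr with a minimum count of 10, quasi-likelihood fit with 1 coefficient per group). Genes were called at a Benjamini-Hochberg adjusted p under 0.05 and over 2-fold. Levels are TMM-scaled CPM. Standard errors were derived from the fit's F statistic. Separate fits covered the 12 D6 libraries (15435 genes) and all 24 libraries (15639 genes), the latter for the D0 difference, the interaction and the WT and Tet1-/- changes. Values of D0 and of the plot of both days come from the latter. On counts simulated for 15224 genes with 200 changed by 2 on the log2 scale, the D6 fit recovered 178 with 7 false calls, and the interaction, on 15186 genes, 166 with 10. The changed genes were drawn from better counted genes, and the fit's own spread per gene was used alike in all groups. Recovery of genes with few counts was thus not measured. Where a library had 0 counts of a gene, up to 3 could have been missed, 0.0877 to 0.107 CPM in the 4 libraries, by counting error alone. Counts varied between clones by 8.91 (Tet2-/-) and 16.4 (DKO) times the sampling variance.

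Named genes were the 10 called genes per direction with the largest change among those without overlap between genotypes and of at least 5 CPM, the 5 per direction with the highest CPM, list members (called ones by size, up to 6, and others needed to describe a list), and the Tet, pluripotency and lineage genes that the study discusses; of some lists more than 6 called genes are named. A few genes that this rule takes in are not reported here. The comparison, the lists and the tests were chosen with earlier results of these data known. Lists are described by counts and medians, without a set test. Chromosomes were known for 92.2% of tested genes (GENCODE vM1). Promoters were in the RefSeq table (GRCm38.p6) for 11392 of the tested genes, under 80% of them, so no property was compared between called sets. Alternatives were DESeq2 1.42.0, library totals, DESeq2 size factors, no filter, fewer libraries, a replicate block, each transcript row and no fold minimum.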

Additional observations from a re-analysis of the deposited data

Results flagged for a closer look

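The interaction contrast called 490 genes upward and 242 downward, that is, genes whose DKO to Tet2-/- difference was not the same at D6 as at D0. Groups have 2 or 3 clones, too few for a test of single libraries. The named genes that passed this test are given with the log2 difference at D6 minus that at D0.

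Upward, the keratins Krt19, Krt8 and Krt18 had 4.58, 2.89 and 2.04, and the claudins Cldn4 and Cldn3 3.26 and 2.02. Actin regulators were Tpm1 at 1.83, Csrp1 at 1.45, Cald1 at 1.27, Cnn2 at 1.25 and Myh9 at 1.65. Of the Hippo and YAP genes, Tead4 had 2.61, Axl 2.38, Cyr61 1.94, Amotl2 1.69 and Lats2 1.40. The others were Peg3 at 3.52, Hoxc4 at 2.91, S100a6 at 2.69, Igfbp3 at 2.32, Socs3 at 1.83 and Sparc at 1.65. Several of these values include a D0 difference of the opposite sign. Cldn4 and Tead4 were called lower in DKO at D0, with log2 differences of -1.57 ± 0.32 and -1.27 ± 0.30. Those of Krt19, Peg3, Axl, Cldn3 and Myh9 at D0 were -1.63, -1.44, -0.95, -0.84 and -0.65, and those of Hoxc4, Tpm1, Cnn2, Socs3 and Amotl2 lay between -0.48 and -0.10, none of them called.

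Downward, the naive pluripotency genes Gbx2, Nr0b1 and Tcl1 had -3.67, -2.81 and -1.81, and Lifr, the LIF receptor, -1.39. Inhbb had -3.75 and Zfyve28 -3.45. Tubb3 and Elavl3, best known from neurons but transcribed in both genotypes at D0, had -2.71 and -2.39. The rest were Tcerg1l at -2.69, Spry4 at -2.43, Ccnd1 at -1.39 and Dlc1 at -1.17. Inhbb stood at 122 and 144 CPM in Tet2-/- and 149.8 and 145 CPM in DKO at D0. Gbx2, Ccnd1, Inhbb and Spry4 had D0 differences of the opposite sign (0.82, 0.25, 0.14 and 0.08), none of them called.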

How the results depend on the processing

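The counts of 983 genes higher and 483 lower changed most when a DKO or Tet2-/- library was left out, and by how much depended on which one. Leaving out 1 of the 12 D6 libraries gave 11 to 1119 genes higher and 17 to 575 lower, and the counts below 800 and 400 came from leaving out a DKO or Tet2-/- library, which leaves that group with 1 clone. A fit of the 4 libraries alone called 1587 and 867, and each transcript row in place of the first row per symbol 1532 and 814. Without a fold minimum 1390 and 963 genes passed. DESeq2 (1153 and 603), library totals (1100 and 432), DESeq2 size factors (974 and 506), no filter (1016 and 539) and a fit without TKO (1089 and 537) stayed within 1.5 times. The replicate number as a block gave 862 and 428 with 12 libraries and, chosen after seeing the data, 1568 and 873 with 4; deviations of same-numbered libraries correlated at 0.135 over 2 pairs, so the number was not taken to pair them. The interaction counts of 490 and 242 became 1141 and 723 with the 8 DKO and Tet2-/- libraries alone and ranged from 115 to 319 and from 29 to 136 without 1 library. They were 627 and 330 with clone as a block, 727 and 325 with DESeq2, 556 and 175 with library totals and 483 and 208 without a filter. Of the 38 genes run under these settings (those with the largest changes, the highest CPM or discussed by the study), Nanog was the one that turned direction, from -0.10 to 0.067 on the log2 scale without DKO replicate 2 and -0.321 without DKO replicate 1, and it was not called in any of these. Over these genes and 20 settings each, 650 of 760 results kept their direction and side of the threshold, 94 were no longer called and 15 became called. The WT shares of 72.3% and 51.1% were 69.6% to 73.0% and 46.8% to 53.4% without 1 WT library. The median of chromosome 8 was -0.49 without DKO replicate 2 and -0.24 without DKO replicate 1. The fits without genes of chromosomes 6, 8 and Y, without TKO, and of DKO against WT and Tet1-/- with DESeq2 were chosen after seeing the data. The causes of these changes were not tested.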
